A study of Homo sapiens with 30 samples.

Results

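The late end of the response of BEAS-2B cells to whole birch pollen is described here, from the 6 arrays of 24 h among the 30 arrays of the series. The members are the 3 arrays labelled pollen at 24 h and the 3 labelled air at that time, which are the mock exposures. They were compared across all genes, as pairs of arrays with the same replicate number. BEAS-2B is a human line derived from bronchial epithelium and immortalized, and was grown on inserts at the air-liquid interface, with medium below the cells and air above them. Pollen cells received 10 mg of whole birch pollen dispersed into a sedimentation chamber by pressured air. Mock cells went through the same chamber and the same air, with a mesh that kept the pollen out, so that both groups carry the handling. After the exposure both were returned to an incubator until the RNA was taken at 24 h. The earlier times of 2h25 min and 6h50 min, with 6 arrays each, are used only to show where the 24 h arrays differ. A cell line at the air-liquid interface lacks the immune cells and the layered airway lining of a donor, and the inserts were each of the same line. Repeats were made on different days per the study's methods, and 3 pairs limit the precision of every value.

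Cells that meet a stimulus switch on a first set of genes within an hour, many of them through the MAP kinases ERK, JNK and p38. Among these immediate early genes are transcription factors such as EGR1, FOS and MYC, secreted growth factors and cytokines, and the DUSP and SPRY proteins, which act back on the MAP kinases and shut the signal off. Interferon-stimulated genes, metallothioneins, detoxifying enzymes and keratins belong to later or slower programmes of airway epithelium.

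The values are log2 spot intensities, background subtracted and detrended within the array by the scanner software, less the 75th percentile of the array, so that 0 is the brightness of that percentile and negative values are dimmer. Between 47.9% and 51.4% of the probes of a 24 h array were well above background, with 0 saturated spots. All 6 arrays of 24 h lay on 1 slide, with the replicate 3 pair of 2h25 min on the same slide. In blocks of 16 by 8 spots no area of a 24 h array was dimmer than its own level by more than 0.262 (log2). Of 6 epithelial markers (KRT7, KRT8, KRT18, KRT19, EPCAM and CDH1) all were well above background on all 6 arrays. The 4 mesenchymal markers VIM, CDH2, FN1 and ZEB1 were so as well, with VIM at 6.15 to 6.47 and KRT7 at 5.88 to 6.40. Of 6 fibroblast markers COL1A1, PDGFRB and DCN were so on all 6, COL1A2 on 4 and COL3A1 and LUM on 0. COL1A1 differed between pollen and mock by 0.23, with an unadjusted p of 0.019 by limma. Of the ciliated markers FOXJ1, TEKT1 and DNAH5 none was so on all 6, while of 4 secretory markers SCGB3A1, SCGB1A1 and MUC5AC were so on all 6 and MUC5B on 0 arrays. Among the leukocyte markers CD14 and PTPRC were above background on all 6 arrays, CD3E on 2 and MS4A1 on 0, and the differences of CD14 and PTPRC between pollen and mock were 0.28 and 0.09. Of the endothelial markers CDH5 was above background on 6 arrays, VWF on 5 and PECAM1 on 0. VWF was dim, at -7.08 to -5.89, with a difference of -0.63 and an unadjusted p of 0.00483 by limma. The part of such RNA in the differences below was not tested, and in a bulk sample fewer cells of a type and less RNA per cell cannot be told apart.

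At 24 h no probe passed the threshold of an adjusted p under 0.05 with at least 1.1-fold change. A total of 29006 probes of 22076 genes were tested by limma with the replicate pair as a block, and 0 were called (0%). The smallest of the adjusted p was 0.0992. Before adjustment, p was under 0.05 for 1488 probes with higher and 721 with lower levels in pollen. Without the replicate block limma called 0 probes as well, and p before adjustment was under 0.05 for 691 and 257 probes. Array weights, which let the noisier pairs count less, gave other counts, with 483 probes called higher and 107 lower. These weights were 2.64 for the pair of replicate 1, 0.792 for replicate 2 and 1.04 for replicate 3. Most differences were small. Over the 26307 probes well above background on all 6 arrays the SD of the log2 fold changes was 0.165. Of these, 66 were at least 1.5-fold higher and 31 at least 1.5-fold lower in the mean with the same sign in every pair.

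**Figure D1:**
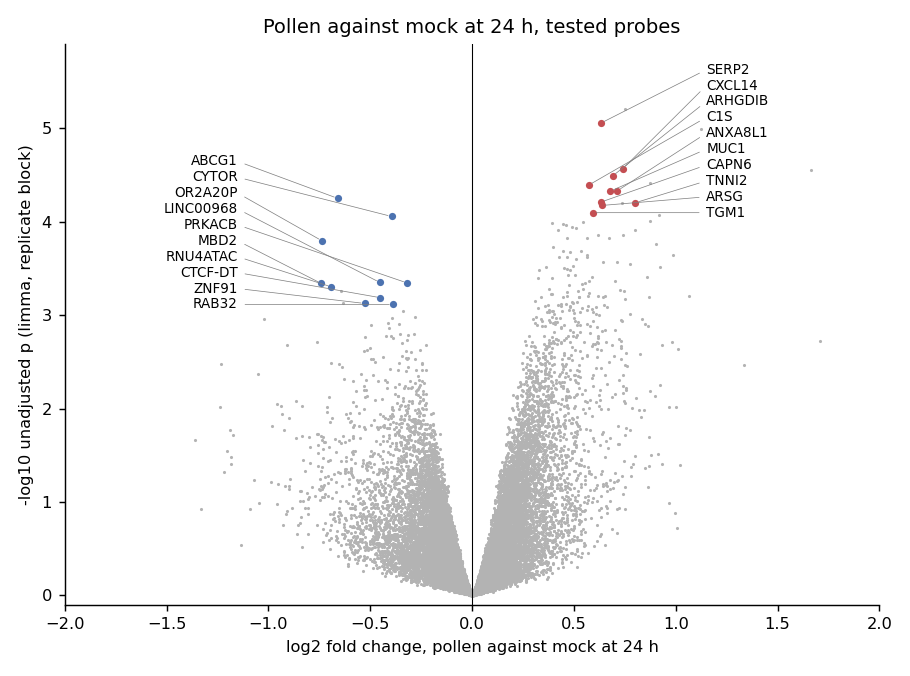
Each point is a probe tested at 24 h, with the log2 fold change of pollen against mock on the x axis and the -log10 of limma's unadjusted p on the y axis. The 10 genes with the smallest p in each direction are named (red higher, blue lower), none of them past the adjusted threshold, and the smallest p lie on the side of higher levels in pollen.

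The clearest difference from 2h25 min was that some early genes had lost the lead over mock that they had then, called a turn here. In pollen cells they were above mock at 2h25 min and at or below mock at 24 h. The difference between the pollen effect at 24 h and that at 2h25 min was tested by limma. Limma called 4 of 32607 probes (0.0123%), namely CCN2, DUSP6, MYC and SNAI1, all with a lower effect at 24 h. At 6h50 min their log2 fold changes were already down to 0.12, 0.14, 0.08 and 0.15. The loss of the lead is thus not particular to 24 h. A plain return to mock would give the same call, so that levels below mock were not shown by it. At 24 h alone the adjusted p of these genes by limma were 0.319, 0.287, 0.594 and 0.883. Before adjustment p was under 0.05 for 1434 probes with a higher and 823 with a lower effect at 24 h.

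CCN2, a secreted matricellular protein and a textbook target of YAP and TGF-beta, gave the largest turn of the 4. Its probe lies at chr6:132270130-132270189 on hg19. At 2h25 min the pollen minus mock differences in the 3 pairs were 1.55, 1.53 and 1.24 (log2). At 24 h the mock arrays were at -1.90, -1.85 and -1.59, and the pollen arrays at -2.25, -2.12 and -2.17. Every pollen array was thus below every mock array at 24 h. The difference at 24 h was -0.40 ± 0.11 (SE), with an adjusted p of 0.319, and the change of the effect from 2h25 min to 24 h was -1.84 ± 0.16 (SE) with an adjusted p of 0.00258. The level of CCN2 also moved in mock cells, between 0.77 and 0.83 at 2h25 min and between -1.90 and -1.59 at 24 h.

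The letters GGAATG, the core bound by TEAD factors, the DNA partners of YAP, stand close together in the CCN2 promoter at 2 places. The stretch is shown because CCN2 carries the largest turn, at chr6:131951422-131951507 on GRCh38 (RefSeq, minus strand, 135 to 50 bases before the start), with the matches in capitals.
CCN2: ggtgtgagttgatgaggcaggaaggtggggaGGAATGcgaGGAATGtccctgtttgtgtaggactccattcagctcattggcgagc
Counted on both strands over the 250 bases before the start, these letters stand in 11.9% of 35116 promoters, and in 4 of 15 promoters of the YAP and TGF-beta targets tested. A match of letters is a description and no proof of binding.

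DUSP6, the phosphatase that dephosphorylates ERK, showed the same turn. Its pairs differed by 1.17, 1.52 and 0.69 at 2h25 min. At 24 h the mock arrays stood at 0.39, 0.27 and 0.44, and the pollen arrays at -0.20, -0.18 and 0.02, so that the groups did not overlap. The 24 h difference was -0.49 ± 0.13 (SE), with an adjusted p of 0.287. The effect changed by -1.61 ± 0.18 (SE) from 2h25 min, with an adjusted p of 0.0269. Here the mock levels of both times overlapped, with 0.26 to 0.71 at 2h25 min.

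MYC, a transcription factor of growth and ribosome synthesis, had pair differences of 1.12, 1.26 and 0.83 at 2h25 min. At 24 h the mock arrays were at 2.62, 2.50 and 2.42 and the pollen arrays at 2.26, 2.46 and 2.00. All pairs were lower in pollen, although the groups overlapped. The effect changed by -1.34 ± 0.16 (SE), with an adjusted p of 0.0283. SNAI1, a repressor of E-cadherin, had pair differences of 0.74, 0.87 and 0.60 at 2h25 min, and of -0.07, -0.16 and -0.08 at 24 h. Its effect changed by -0.84 ± 0.10 (SE), with an adjusted p of 0.0283, and its groups at 24 h overlapped.

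The pairs of both times each lay on 1 slide, and the replicate 3 pair of 2h25 min shared the slide of the 24 h arrays. Against that pair alone, within the slide, the effect at 24 h differed by -1.65 for CCN2, -1.18 for DUSP6, -1.102 for MYC and -0.70 for SNAI1, as values without a test. CCN2 stayed past the threshold in 29 of 31 alternatives, DUSP6 in 22, MYC in 7 and SNAI1 in 6, and the sign was the same in all of them. The alternatives that left out 1 array were also fitted without the replicate block. With no block and all arrays kept, only CCN2 and DUSP6 were called, so that these alternatives are not separate from that one. CCN2 was lost with the 75th percentile over own probes and with only the arrays of both times, with adjusted p of up to 1. DUSP6 was lost without each pair of 24 h in turn, among others. The next genes by p with a lower effect at 24 h were not called. They were IER3, DUSP5, CYTOR, EREG, KLF10 and LIF, with changes of the effect between -1.73 and -0.68 and adjusted p between 0.0516 and 0.114.

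**Figure D2:**
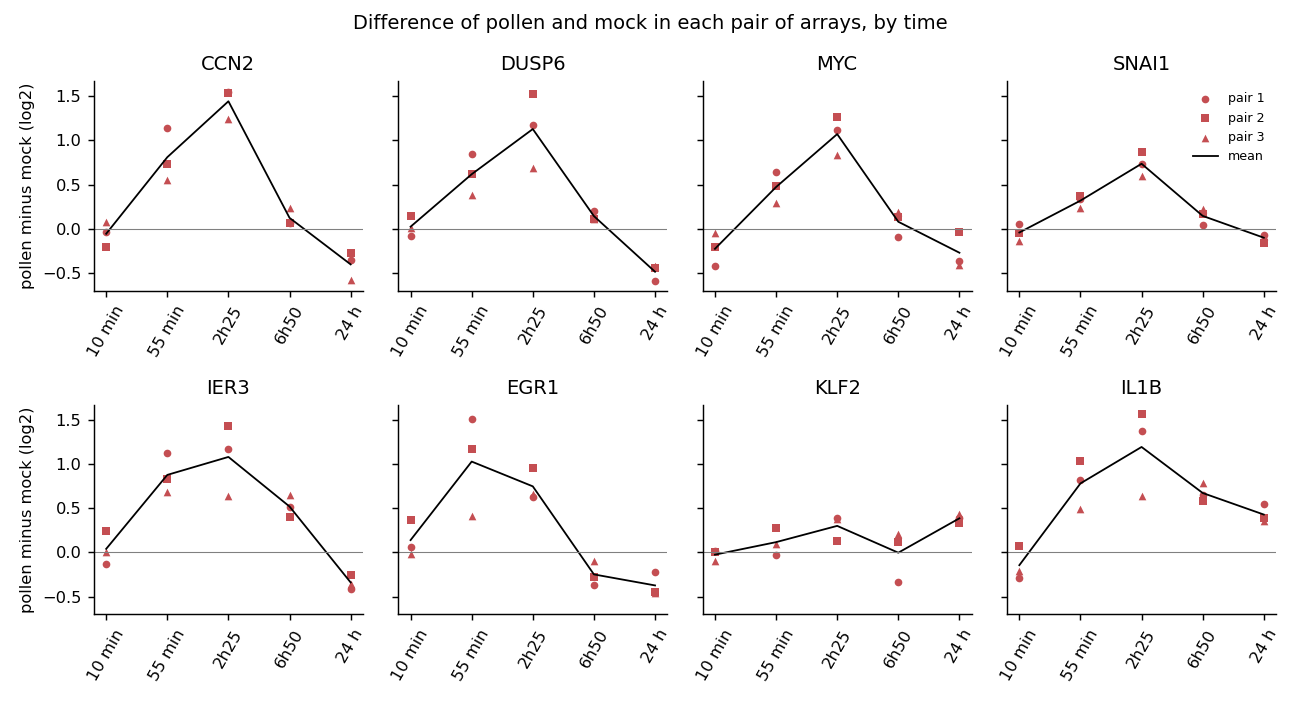
The pollen minus mock difference (log2) of each pair of arrays is plotted on the y axis against the time on the x axis for 8 genes, with the line through the mean of the 3 pairs. CCN2, DUSP6, MYC and SNAI1 peak at 2h25 min and lie below 0 in every pair at 24 h. IER3 and EGR1 also lie below 0 in every pair at 24 h, while KLF2 and IL1B lie above it.

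The list of immediate early and MAP kinase feedback genes, 36 tested of 38, leaned the same way as these 4. DUSP6 and MYC are themselves members of the list, so that the list is not separate from them. At 24 h 31 of the 36 were lower in pollen and 5 higher, with a median log2 fold change of -0.18, against -0.0015 over all 22076 genes. The pairs gave medians of -0.20, -0.09 and -0.18. At 2h25 min the median of the same genes was 0.59, and at 6h50 min 0.03. A total of 19 were lower in all 3 pairs, which holds for 16% of all genes, and 2 were higher in all 3, which holds for 17.9% of all. At an unadjusted p under 0.05, 6 were lower (2.31% of all genes) and 2 higher (5.44% of all genes). None passed the adjusted threshold.

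Among the feedback proteins SPRY4, an inhibitor of receptor tyrosine kinase signalling, was at -2.13, -2.39 and -2.22 in mock and at -2.59, -3.06 and -2.75 in pollen. The groups of SPRY4 did not overlap, and the difference was -0.55 ± 0.20 (SE), with an adjusted p of 0.477. The phosphatases DUSP1 and DUSP4 were lower in all 3 pairs as well, by -0.34 ± 0.12 and -0.17 ± 0.07 (SE). DUSP5, an ERK phosphatase of the nucleus, had pair differences of -0.54, -0.08 and -0.36. SPRY2, of the same family as SPRY4, was at -0.01 ± 0.07 (SE).

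Among the transcription factors EGR1 stood at 2.53, 3.25 and 2.74 in mock and at 2.31, 2.80 and 2.28 in pollen. The difference was -0.37 ± 0.16 (SE), with an adjusted p of 0.632, lower in all pairs with overlapping groups. MAFF, a small MAF protein, was at 0.75 at 2h25 min and at -0.53 at 24 h. FOS, JUN and FOSB differed by -0.15, -0.24 and -0.71 with unadjusted p between 0.213 and 0.664, and the pairs of FOSB ran from -1.42 to -0.19. KLF2, a zinc finger factor known from endothelium, went the other way, with mock arrays at 1.46, 1.42 and 2.20 and pollen arrays at 1.85, 1.75 and 2.63. Its difference was 0.39 ± 0.10 (SE), with an adjusted p of 0.287. KLF2 was higher in every pair by between 0.33 and 0.44. DUSP2 was higher by 0.57 ± 0.23 (SE), with pairs from -0.13 to 1.29.

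EGR1 is a textbook target of serum response factor, which binds the CArG box. The stretch of its promoter that holds CArG boxes is at chr5:138465356-138465445 on GRCh38 (RefSeq, plus strand, 123 to 34 bases before the start), with 2 matches in capitals. It is shown because EGR1 was among the early genes that were lower in all 3 pairs at 24 h.
EGR1: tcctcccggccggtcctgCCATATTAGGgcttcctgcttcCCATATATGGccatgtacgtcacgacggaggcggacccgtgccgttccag
The CArG box stands in 1.16% of all promoters over the 250 bases before the start, on either strand, and in 1 of 29 promoters found for the list.

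Of the 20 genes that the study names for 55 min and 2h25 min, 19 were tested at 24 h. The study chose them on the early arrays of this series, which are other arrays than those of 24 h. Their median was 1.07 at 2h25 min, 0.25 at 6h50 min and -0.11 at 24 h. At 24 h 12 were lower and 7 higher in pollen, with 9 lower and 1 higher in all 3 pairs. CCN2, DUSP6 and MYC, described above, are among the 9.

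The 1 that was higher in all 3 pairs was IL1B, the inflammatory cytokine interleukin 1 beta. Its mock arrays were at -3.70, -3.84 and -4.09 and its pollen arrays at -3.15, -3.46 and -3.73. The groups overlapped by 1 pollen array, and the difference was 0.43 ± 0.15 (SE), with an adjusted p of 0.488, after 1.19 at 2h25 min and 0.67 at 6h50 min. IER3, an early survival factor, had pair differences of -0.41, -0.25 and -0.35 and a second probe at -0.36. The tissue factor F3, the starter of coagulation, had no overlap between groups, at 1.13, 1.02 and 0.99 in mock and 0.86, 0.93 and 0.67 in pollen, yet a difference of only -0.22 ± 0.15 (SE). The EGF receptor ligand EREG was at -0.18, the gp130 cytokine LIF at -0.17, the endoribonuclease ZC3H12A at -0.11, the kinases MAP2K3 and PIM1 at -0.07 and -0.03. EGR2 was at -0.40, above background on only 1 of 3 pollen arrays. The NF-kB inhibitors TNFAIP3 and NFKBIZ were at 0.13 and 0.06, the interferon-inducible GTPase GBP1 at 0.03, and the cytokine signalling inhibitor SOCS3 at 0.16. None of these passed the test. CSF2, the growth factor GM-CSF, was not well above background on any of the 6 arrays of 24 h.

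IL6 and the chemokines depended on the pair. IL6 stood at -0.32, -0.05 and -0.02 in mock and at 0.51, -0.27 and -0.41 in pollen, so that it was higher in the pair of replicate 1 only. CCL20, the ligand of CCR6, was at -5.57, -5.01 and -5.16 in mock and at -3.19, -4.64 and -5.36 in pollen, with pair differences of 2.38, 0.37 and -0.20. CXCL1, a neutrophil attractant, had pair differences of 1.71, -0.16 and 0.001, and CXCL2, of the same family, of 1.09, -0.01 and 0.10. The pollen array of replicate 1 was thus far above all others for CCL20 and CXCL1. CCL2, which attracts monocytes, was higher in every pair, by 0.30, 0.09 and 0.40. Over the 28 NF-kB targets tested, 22 were higher in the fit, but only 5 in all 3 pairs, and the pair medians were 0.12, -0.05 and 0.06. Without replicate 1 the fitted median was 0.02, without replicate 2 it was 0.15. Their median was 0.08 at 24 h, after 0.56 at 2h25 min and 0.35 at 6h50 min.

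**Figure D3:**
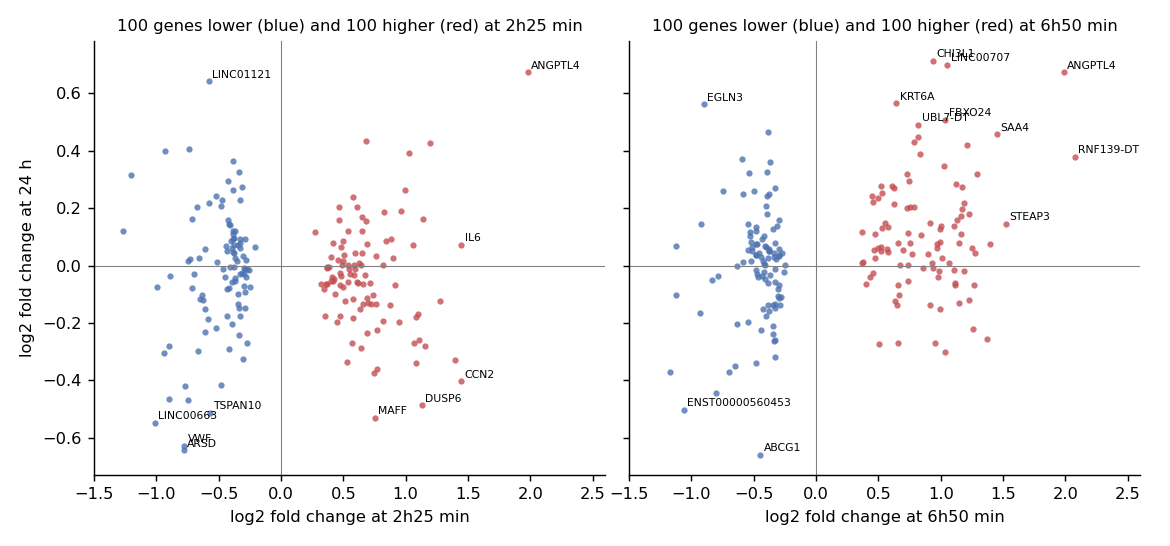
Each point is a gene, with its log2 fold change of pollen against mock at the earlier time on the x axis and that at 24 h on the y axis, for the 100 genes with the smallest p in each direction at 2h25 min (left) and at 6h50 min (right). The genes higher at 2h25 min scatter around 0 at 24 h with CCN2, DUSP6 and MAFF below, while those higher at 6h50 min lie mostly above 0, with ANGPTL4 far to the right in both.

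The genes with the smallest p at the earlier times lay mostly close to mock at 24 h, as most genes did. The 100 genes with the smallest p for a higher level at 2h25 min, at a median of 0.64 then, had a median of -0.04 at 24 h. Of these 39 were higher and 61 lower at 24 h, and 36 were lower in all 3 pairs. For 73 of the 100 the difference at 24 h was at most 0.25 times that of 2h25 min in size. The 100 genes lower at 2h25 min had a median of -0.01 at 24 h, with 47 higher. The 100 genes higher at 6h50 min went from a median of 0.85 then to 0.08 at 24 h, with 73 higher and 43 higher in all 3 pairs, and for 68 the difference was at most 0.25 times that of 6h50 min in size. Their pair medians were 0.02, 0.06 and 0.22, and without the pair of replicate 3 the 24 h median was 0.03, without replicate 1 or 2 it was 0.12. For the 100 genes lower at 6h50 min the 24 h median was 0.02. Over all 29006 tested probes 14276 were higher, with 5059 higher and 4788 lower in all 3 pairs. No share over all genes is given beside the counts of 73 and 68. Small differences were common at 24 h, with an SD of 0.165 over probes above background on all 6 arrays. A choice by small p at the earlier time also favours smaller values at another time, so that these counts are a description.

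ANGPTL4, a lipoprotein lipase inhibitor and a target of PPAR and of the glucocorticoid receptor, kept part of its early difference. Its log2 fold change was 1.98 at 2h25 min, 1.99 at 6h50 min and 0.67 ± 0.18 (SE) at 24 h, with an adjusted p of 0.301. The pairs at 24 h differed widely, at 0.16, 0.73 and 1.13. PDK4, the pyruvate dehydrogenase kinase that PPAR also controls, was higher in each pair, by 0.44, 0.41 and 0.37. Of the 12 PPAR targets tested 9 were higher, 6 of them in all 3 pairs, with a median of 0.10. CHI3L1, the chitinase-like protein YKL-40, was at 0.94 at 6h50 min and at 0.71 ± 0.14 (SE) at 24 h, with pairs at 0.52, 0.44 and 1.18.

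The 10 genes with the smallest p for a higher level in pollen, among probes above background on all 6 arrays and higher in every pair, were SERP2, CXCL14, ARHGDIB, C1S, ANXA8L1, MUC1, CAPN6, TNNI2, ARSG and TGM1. They were chosen by these values, which are thus a description, also where their 24 h values exceed those of other times. They were 1.49-fold to 1.74-fold higher, with adjusted p between 0.0992 and 0.133. With normexp background correction and quantile normalization 4 of them moved by over 1.5 times, CXCL14 to 0.39, ARHGDIB to 0.37, CAPN6 to 0.34 and ARSG to 0.38 (log2). At 2h25 min the same genes lay between -0.23 and 0.07, and at 6h50 min between -0.04 and 0.30. In 7 of the 10 every pollen array was above every mock array. A choice by small p and by the same sign in every pair favours this, and no share over all genes is given beside it.

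MUC1, a mucin anchored in the apical membrane, was at -2.99, -3.32 and -2.43 in mock and at -2.51, -2.37 and -1.82 in pollen. Its groups overlapped by the mock array of replicate 3, and its pairs differed by 0.48, 0.95 and 0.61. TGM1, the transglutaminase that crosslinks the cornified envelope, stood at -2.88, -2.74 and -3.03 in mock and at -2.33, -2.17 and -2.38 in pollen, with no overlap. The log2 difference was 0.59 ± 0.10 (SE). CXCL14, a chemokine of resting epithelium, was at -5.27, -4.36 and -4.56 in mock and at -4.46, -3.71 and -3.79 in pollen. The CXCL14 groups overlapped, since replicate 1 was low in both, while the pairs differed by 0.81, 0.65 and 0.76. C1S, a protease of the complement cascade, was at 0.61, 0.33 and 0.82 in mock and at 0.96, 1.03 and 1.499 in pollen, and a second C1S probe differed by 0.22. CFD, the complement factor D, was higher by 0.43 ± 0.08 (SE) in the wider group of the next 30 genes.

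SERP2, a small protein of the endoplasmic reticulum, had the smallest p of the 10, with 0.63 ± 0.09 (SE) and pairs of 0.60, 0.57 and 0.73, and a second probe at 0.36. Its mock arrays were at -1.59, -1.69 and -1.01 and its pollen arrays at -0.99, -1.12 and -0.28. ANXA8L1, an annexin with near-identical copies in the genome, was at 1.38, 1.41 and 1.34 in mock and 1.96, 1.88 and 2.44 in pollen, and its probe may read the copies too. ARHGDIB differed by 0.69 ± 0.11 (SE). TNNI2, a fast troponin I, differed by 0.80 ± 0.13, CAPN6, a calpain without protease activity, by 0.63 ± 0.10, and the sulfatase ARSG by 0.64 ± 0.11 (all SE), with a second ARSG probe at 0.20. Further down by p came the glycosyltransferase GALNT6 (0.39), the WNT inhibitor SFRP1 (0.46), the ATP receptor P2RX7 (0.80), the protease inhibitor SERPINA3 (0.57), the histones H2AC6 (0.74) and H2BC6 (0.51), and DHX58 (0.56), a helicase of the antiviral RIG-I family.

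Some dim probes entered the test only through the pollen arrays, so that a difference was built in and is given as a description. VSX1, a homeobox factor of the eye, was not well above background on any mock array and was so on all 3 pollen arrays, and was at least 1.85-fold higher in pollen. LINC01121 and NATD1 had the same pattern, at least 1.56-fold and at least 1.57-fold higher. These bounds set the mean of pollen against the higher of the probe's own value and the lowest signal well above background on each mock array. A second VSX1 probe differed by -0.07, and 2 other LINC01121 probes by 0.15 and 0.36.

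**Figure D4:**
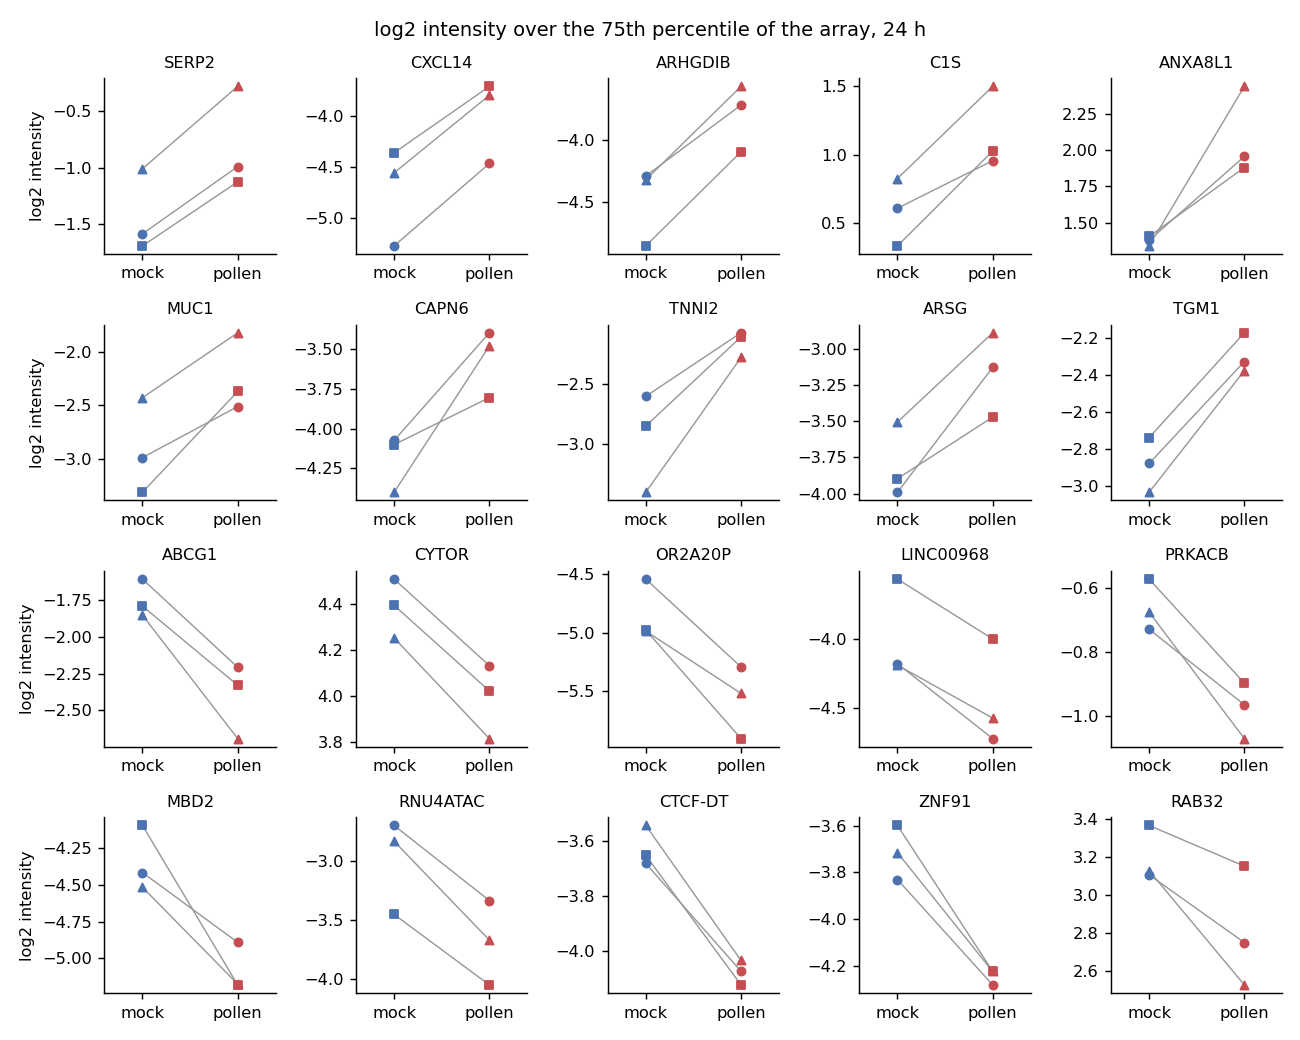
The log2 intensity over the array's 75th percentile at 24 h is plotted on the y axis for mock (blue) and pollen (red), with a line joining the arrays of each pair (circle replicate 1, square 2, triangle 3) and a scale of its own for each gene. The upper 2 rows hold the 10 leading genes higher in pollen and the lower 2 rows the 10 leading genes lower in pollen. Every line runs the same way within a gene because the genes were chosen so. In 14 of the 20 genes the groups do not overlap, which that choice favours.

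The 10 leading genes lower in pollen were ABCG1, CYTOR, OR2A20P, LINC00968, PRKACB, MBD2, RNU4ATAC, CTCF-DT, ZNF91 and RAB32. They were 1.25-fold to 1.67-fold lower, with adjusted p between 0.13 and 0.213. With normexp and quantile normalization 5 of them shrank by over 1.5 times, MBD2 to -0.32, OR2A20P to -0.31, LINC00968 to -0.25, CTCF-DT to -0.29 and ZNF91 to -0.32 (log2). ABCG1, a cholesterol exporter driven by LXR, stood at -1.61, -1.79 and -1.85 in mock and at -2.21, -2.33 and -2.69 in pollen. The groups did not overlap, and the difference was -0.66 ± 0.11 (SE). At 6h50 min ABCG1 was at -0.45. CYTOR, a long noncoding RNA of growing and migrating cells, was at 4.51, 4.39 and 4.25 in mock and 4.13, 4.02 and 3.81 in pollen. Its pair differences of -0.38, -0.37 and -0.44 were close to each other, and a second probe differed by -0.16. CYTOR had been at 0.28 at 2h25 min, so that it turned in the same way as the early genes without being called.

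RAB32, a small GTPase of lysosome-related organelles, differed by -0.39 ± 0.09 (SE), with overlapping groups. For the others the probes of a gene did not always go together. PRKACB, a catalytic subunit of protein kinase A, differed by -0.32 at the leading probe and by -0.02 and 0.34 at 2 others. The leading probes of MBD2, a reader of methylated DNA, and of the zinc finger gene ZNF91 were at -0.74 and -0.53, and their second probes at -0.08 and 0.02. The minor spliceosome RNA RNU4ATAC was at -0.69 and at 0.13 with a second probe. Among the next 30 genes by p were the ERK-dependent ETS factor ETV5 (-0.50), CSRNP1 (-0.53), the YAP target ANKRD1 (-0.51), the deadenylase NOCT (-0.53) and DUSP6.

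**Figure D5:**
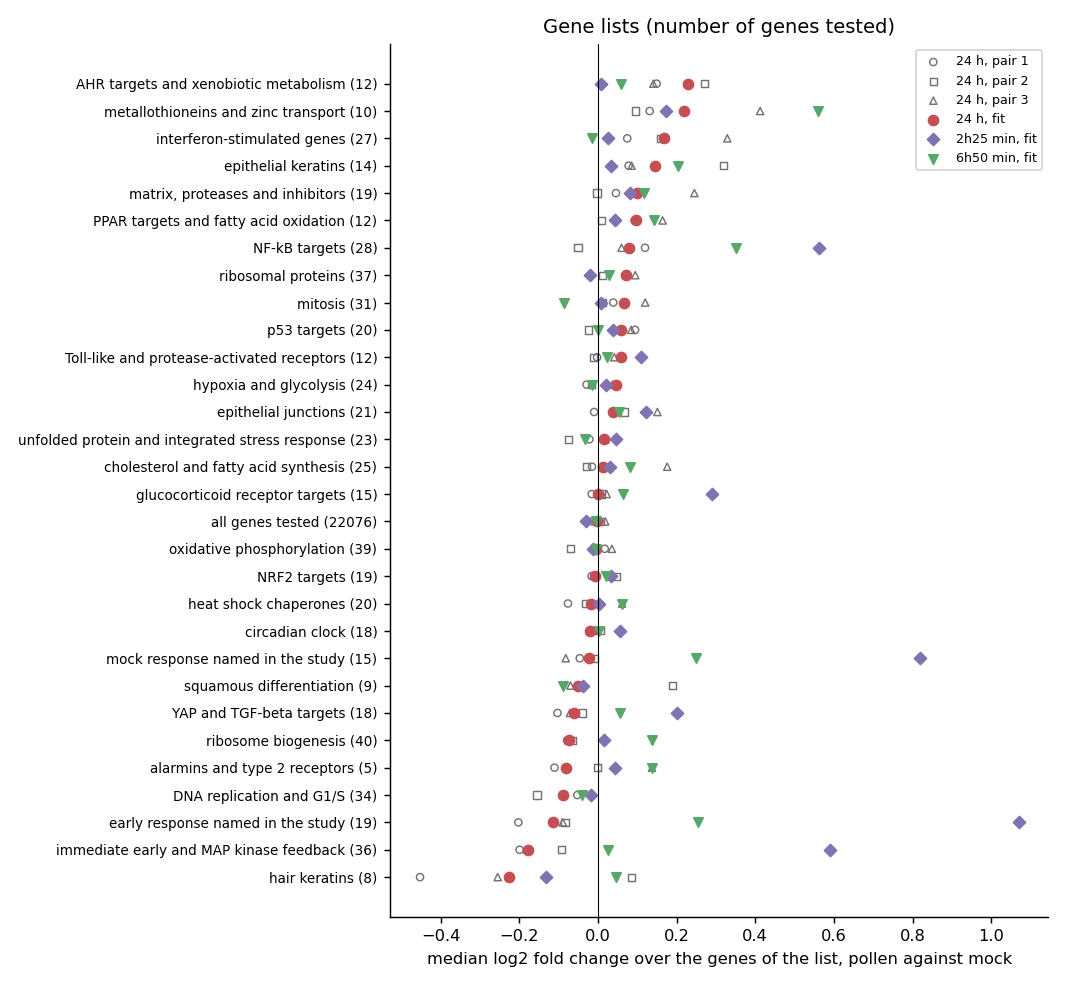
The median log2 fold change of pollen against mock over the genes of a list is on the x axis, for 29 lists and for all genes tested (rows, with the number of genes tested). Filled red circles are the 24 h fit, open symbols the 3 pairs of 24 h, purple diamonds 2h25 min and green triangles 6h50 min. The immediate early list and the early response named in the study are far right at 2h25 min and left of 0 at 24 h. NF-kB targets, also far right at 2h25 min, are slightly right of 0 at 24 h. Interferon-stimulated genes, metallothioneins and AHR targets are right of 0 in every pair at 24 h. So are PPAR targets, epithelial keratins, mitosis genes and ribosomal proteins.

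Interferon-stimulated genes leaned towards higher levels. Of 27 tested 26 were higher in pollen, 12 in all 3 pairs, against 17.9% of all genes, and 0 lower in all 3, against 16% of all. The median was 0.17 at 24 h, after 0.02 at 2h25 min and -0.01 at 6h50 min, and the pairs gave 0.07, 0.16 and 0.33. None was called, and 6 were higher at an unadjusted p under 0.05, against 5.44% of all genes. The counts of the lists that follow have these same shares of all genes as their background. IRF9, a subunit of the ISGF3 factor that reads the interferon signal, was higher in each pair, by 0.23, 0.35 and 0.39, with a fitted difference of 0.32 ± 0.07 (SE) and an adjusted p of 0.215. USP18, which shuts the receptor off again, differed by 0.31 ± 0.09, and the antiviral OASL by 0.35 ± 0.11 (SE). XAF1 had pair differences of 0.51, 0.87 and 0.45. BST2, a tether of budding viruses, had 0.22, 0.19 and 0.33. CMPK2 rested on replicate 3, with 0.37, 0.12 and 1.44. ISG15 differed by 0.11, and MX2, OAS3 and IFIT2 by 0.03, 0.02 and 0.02.

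Promoter stretches of 3 members are shown, since most of the list leaned the same way. Among the 19 members with a promoter found, they are those with the smallest p at 24 h that hold the interferon response element. This was searched as GAAA, any 2 bases and GAAA again, before the start, on GRCh38 from RefSeq. Members without a promoter found were not searched. BST2 lies at chr19:17405705-17405794 (minus strand), IFI44 at chr1:78649731-78649788 (plus strand) and IFI44L at chr1:78620335-78620424 (plus strand). The capitals mark the match, which for IFI44 stands on the other strand.
BST2: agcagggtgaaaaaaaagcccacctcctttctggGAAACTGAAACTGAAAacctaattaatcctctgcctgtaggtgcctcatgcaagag
IFI44: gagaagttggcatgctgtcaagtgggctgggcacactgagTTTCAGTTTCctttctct
IFI44L: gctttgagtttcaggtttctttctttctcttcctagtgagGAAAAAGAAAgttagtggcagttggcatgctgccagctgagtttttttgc
In BST2 there are 2 overlapping matches. On either strand of the 250 bases before the start this pattern stands in 12 of the 19 promoters found for the list (63.2%) and in 3.02% of all promoters. It stands in 0 of the 29 promoters of the immediate early list. These shares come from the sequences alone, describe the lists and would be the same whatever the arrays showed. A match of letters is no proof of binding. IFI44 and IFI44L differed by 0.31 ± 0.15 and 0.19 ± 0.09 (SE) at 24 h.

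The metallothioneins and zinc transporters, which bind and move zinc, were all higher, 10 of 10, with 7 in all 3 pairs and a median of 0.22. These 7 were all MT1 genes, while the zinc transporters SLC30A1 and SLC39A10 differed by only 0.08 and 0.01. Their median had been 0.17 at 2h25 min and 0.56 at 6h50 min, and at 24 h it was 0.14 without replicate 3. MT1F led with 0.44 ± 0.10 (SE) and pairs of 0.45, 0.20 and 0.66, followed by MT1E with 0.27 ± 0.10 and MT1M with 0.23 ± 0.08 (SE). The MT1 genes are near-identical copies, whose probes may share RNA, so that they do not count as separate evidence. Of the 12 AHR targets and enzymes of xenobiotic metabolism 9 were higher, 5 in all 3 pairs, with a median of 0.23. Among the enzymes the glutathione transferase GSTA4 differed by 0.38 ± 0.09 and the quinone reductase NQO1 by 0.23 ± 0.09 (SE). AKR1B10, an aldo-keto reductase, had pairs of 0.48, 0.58 and -0.14. The classic AHR targets CYP1A1, CYP1B1 and TIPARP differed by 0.08, -0.02 and -0.13, and the epoxide hydrolase EPHX1 by -0.12, with TIPARP and EPHX1 lower in all 3 pairs. With normexp background correction and quantile normalization the median of the AHR list was 0.13.

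Among 14 epithelial keratins 9 were higher in all 3 pairs and 1 lower in all 3, with a median of 0.15, or 0.09 without replicate 2. KRT19, a keratin of simple epithelium, had pairs of 0.35, 0.35 and 0.57 and a difference of 0.42 ± 0.08 (SE), with an adjusted p of 0.133. KRT6A, a keratin of stressed and healing epithelium, had 0.43, 0.51 and 0.76, after 0.64 at 6h50 min, and the near-identical KRT6C had 0.06, 0.30 and 0.83. The basal keratin KRT5 differed by 0.50 ± 0.16 (SE), while KRT80 went the other way, with -0.23, -0.34 and -0.39. Of 8 hair keratins 7 were lower with a median of -0.23, but only 1 in all 3 pairs. The median was -0.10 without replicate 1 and -0.13 with normexp and quantile normalization. Of 9 genes of squamous differentiation 4 were higher, TGM1, CNFN, S100A8 and S100A9, each in all 3 pairs. The median was -0.05, and turned to 0.004 without replicate 1 and 0.05 without replicate 3.

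Of the epithelial junction genes 14 of 21 were higher, 7 in all 3 pairs, with a median of 0.04, or 0.09 without replicate 1 and 0.07 without replicate 3. PKP3, a desmosome protein, differed by 0.29 ± 0.10, E-cadherin (CDH1) by 0.20 ± 0.09 and CLDN7 by 0.16 ± 0.07 (SE). Among 19 matrix genes, proteases and inhibitors 15 were higher, 7 in all 3 pairs, with a median of 0.10, or 0.17 without replicate 2 and 0.03 without replicate 3. MMP9 differed by 0.39 ± 0.13 and tenascin (TNC) by 0.35 ± 0.14 (SE). The urokinase receptor PLAUR was lower in all 3 pairs, by -0.38, -0.13 and -0.24.

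Genes of growth and division were shifted by less. Of 34 genes of DNA replication and G1/S 29 were lower, 13 in all 3 pairs and 7 at an unadjusted p under 0.05, with a median of -0.09. CDC25A, the phosphatase that starts S phase, had pairs of -0.29, -0.33 and -0.19, and the ribonucleotide reductase subunit RRM2 had -0.46, -0.16 and -0.37. The helicase subunits MCM2 and MCM5 differed by -0.21 ± 0.09 and -0.23 ± 0.10 (SE). Mitosis genes went the other way, with 27 of 31 higher, 10 in all 3 pairs, and a median of 0.07, or 0.04 without replicate 3. CENPE differed by 0.21 ± 0.08 and KIF20A by 0.25 ± 0.12 (SE). Of 40 ribosome biogenesis genes 33 were lower, 21 of them in all 3 pairs, with a median of -0.07 and pair medians of -0.08, -0.07 and -0.08. The median had been 0.14 at 6h50 min. PES1 and RRP12, which work on the large and the small subunit, differed by -0.35 ± 0.13 and -0.31 ± 0.12 (SE). The median of 37 ribosomal proteins was 0.07, but -0.0014 with quantile normalization, so that its direction depends on the scaling.

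The YAP and TGF-beta targets had 13 of 18 lower and 6 in all 3 pairs, with a median of -0.06, or -0.09 without replicate 3. CCN2, described above, is among the 6. ANKRD1 had pairs of -0.56, -0.19 and -0.79, and CCN1 of -0.16, -0.22 and -0.21, after 0.95 at 2h25 min. TGFBI, a matrix protein, was higher by 0.20 ± 0.08 (SE). The other lists had medians between -0.08 and 0.06 with 0 genes called. They were NRF2 targets, hypoxia and glycolysis, the unfolded protein response, heat shock chaperones, cholesterol synthesis, oxidative phosphorylation, p53 targets, the circadian clock, glucocorticoid receptor targets, Toll-like and protease-activated receptors, the genes the study names for the mock response, and the alarmins.

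Among the alarmins, the cytokines by which epithelium starts type 2 immunity, IL25 was above background on 0 arrays and IL33 and TSLP on 3 of the 6 each. TSLP had pair differences of -0.48, -0.83 and 0.89 and IL33 of 0.02, 0.00 and 0.14. The receptor chain IL4R had pairs of -0.11, -0.35 and 0.22, after 0.49 at 6h50 min, and a difference at 24 h of -0.08 ± 0.10 (SE).

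Against 6h50 min the effect of pollen at 24 h differed at 0 of 30140 probes by limma, the smallest of the adjusted p being 0.124 (0% called). Before adjustment p was under 0.05 for 1389 probes with a higher and 1586 with a lower effect at 24 h. At 6h50 min the same-numbered arrays hardly deviated together, with correlations of 0.0614, 0.204 and -0.0197. Without the replicate block 0 were called as well. Mock replicates 1 and 2 of 6h50 min had dim areas on 3.57% and 2.58% of their blocks. With those areas left out 0 were called, and 1260 rather than 1586 had a lower effect at p under 0.05 before adjustment. All arrays of 6h50 min lay on another slide than those of 24 h, so that slide and time cannot be told apart, while each pair stayed within a slide. Without mock replicate 3 of 6h50 min, and also without the replicate block, 259 probes were called, 244 of them lower at 24 h. The genes with the smallest p included GSTO2, a glutathione transferase (0.45 at 24 h and -0.20 at 6h50 min), TMEM63C (0.46 and -0.39) and SLCO4A1, a hormone transporter (-0.39 and 0.33). The sulfotransferase CHST15 had been at 0.95 at 6h50 min and was at -0.27 at 24 h, and the RNA exonuclease PDE12 at 1.03 and -0.30.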

How the data were processed

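Cells of the line BEAS-2B were measured on 30 one-colour Agilent arrays, of which the 6 of 24 h are described. The authors deposited the intensity of each spot, background subtracted and detrended by Agilent Feature Extraction 11.0.1.1 and not scaled between arrays, with raw brightness and quality marks. A table of log2 values preprocessed with limma was also deposited. In it the columns of 24 h follow another array of their own group, so it served only as an alternative.

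In R 4.3.3 spots marked uneven or as outliers were left out, replicate spots averaged, and the 75th percentile over the 33873 probes shared by the 2 array designs was subtracted. Names came from RefSeq through the accession for 35066 of 58201 probes and through the file's gene name for 3835. Probe positions are on hg19. No annotation of that build was used, so exons and UTRs are not given. A gene is represented by its brightest tested probe. With limma 3.58.1 (lmFit, eBayes) 15 pairs as blocks and 5 effects of pollen were fitted to all arrays, on 35033 probes. The cut-offs are a Benjamini-Hochberg adjusted p under 0.05 and, against mock, 1.1-fold, among probes above background on at least 3 arrays of 24 h, or of the times compared. Same-numbered arrays of 24 h deviated together, with correlations of 0.665, 0.289 and 0.303, against up to 0.272 between arrays of other numbers. The fit was also run on simulated data with independent noise, which checks the code and says nothing about these arrays.

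Named genes are the 10 with the smallest p in each direction among probes above background on all 6 arrays with the same sign in every pair, up to 3 members of each of 29 lists, the genes the study names for the early response with IL33, IL25, TSLP and IL4R, and up to 10 genes in each direction of the comparisons with earlier times. Genes from the next 30 by p, other list members named and MAFF were picked after their values were seen. The members, lists and tests were chosen with earlier results of these data known. Some list members are not reported here.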

Additional observations from a re-analysis of the deposited data

Results flagged for a closer look

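In 4 genes a test of the difference itself set the pollen effect of 24 h apart from the one of 2h25 min. The change of the effect was -1.84 for CCN2, -1.61 for DUSP6, -1.34 for MYC and -0.84 for SNAI1 on the log2 scale. In each of them all 3 pairs were higher in pollen at 2h25 min and all 3 lower at 24 h. At 6h50 min the effect was already between 0.08 and 0.15, so that the change is not particular to 24 h. The test of the difference cannot tell a return to mock from levels below mock, and none of the 4 was called at 24 h. With 3 arrays per group, single arrays far from the rest of their group were not looked for.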

How the results depend on the processing

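The count of 0 probes at 24 h became 6 when probes above background on all 3 arrays of any group were tested, 590 with array weights, and 11 with normexp and quantile normalization once the 55 min pair with the array of the other design was left out, an alternative chosen after seeing the data. Without the replicate block it was 0. Leaving out an array or a pair gave 0 to 1, and the 1 was ADHFE1, without mock replicate 3 or the pair of replicate 3. Here and below, fits that left out a single array also had no replicate block, while fits that left out a pair kept it. For the effect at 24 h against 6h50 min the count of 0 became 1375 with array weights, 208 with normexp, quantile normalization and that 55 min pair left out, and 1 with the authors' table of log2 values. Leaving out arrays gave 0 to 259, the 259 without mock replicate 3 of 6h50 min and without the block. The 4 probes that differed between 24 h and 2h25 min became 2 without the replicate block, 0 with the 75th percentile over own probes, 1 with quantile normalization, 1 with normexp and quantile normalization, 1 with that and no replicate block, 1 with no filter, 8 with probes above background on all arrays compared, 10 with probes above background on all 3 arrays of a group, 0 with only the arrays of the times compared, 253 with array weights, 2 with slide as a random block, 2 with the authors' table and 26 with normexp, quantile normalization and the 55 min pair left out. Leaving out arrays gave 1 to 3, with 1 without each pair of 24 h in turn. With the pair of the other design left out and quantile normalization there were 4, so the loss under quantile normalization of all arrays goes with that array. Small differences of single genes changed sign when a pair of 24 h was left out, and then ran from -0.231 to 0.0539 for IL4R, -0.153 to 0.0376 for MAP2K3, -0.0726 to 0.00268 for PIM1, -0.304 to 0.305 for IL6, -0.110 to 0.162 for GBP1, -0.0291 to 0.239 for TNFAIP3 and -0.654 to 0.206 for TSLP. TSLP was at 0.00996 with normexp and quantile normalization. Over the list medians under alternatives, 18 moved by more than 1 SD of the pairs and 127 did not.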
